A study of Mus musculus with 12 samples.

Results

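The genes described here mark oligodendrocytes, the cells that make myelin in the brain and spinal cord: Mog, Mobp, Olig2, Cldn11, Ermn, Aspa, Opalin and Enpp2. They were followed in motoneurons captured by laser dissection and, beside them, in sciatic nerve. A probe set was taken as belonging to a gene when the platform annotation gave it exactly 1 symbol, older or current, and that symbol was on the list. By this rule 7 of the 8 genes were measured, with 13 probe sets, out of 18193 genes that had such a probe set. Mobp had 5 probe sets, Ermn and Opalin 2 each, and the other measured genes 1 each. No probe set met the rule for Enpp2, a secreted lipid-processing enzyme of oligodendrocytes, and it was not analysed here. The rule did not use expression values. The genes were proposed with earlier results of these arrays known, so their counts are descriptions and not independent tests.

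The 12 arrays formed 4 groups of 3: motoneurons of Gdap1-/- mice, motoneurons of wild type mice, sciatic nerve of Gdap1-/- mice and sciatic nerve of wild type mice. All mice were untreated and 2 months old, and the knockout lacks exon 5 of Gdap1, a gene of the mitochondrial outer membrane that is mutated in Charcot-Marie-Tooth neuropathy. The labels call the arrays of a group biological replicates, the design text speaks of RNA from 5 mice and of samples selected by amount and quality of RNA, and neither says whether a motoneuron and a nerve array share a mouse. The strain is not given in the sources used here. Per the design text, Gdap1 probe sets match exons 4 and 6 only, and so the deletion itself could not be checked on the arrays. A different RNA kit was used for each tissue.

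In the central nervous system each oligodendrocyte wraps several axons. The transcription factor Olig2 specifies the lineage and is also needed for motoneuron precursors. Mog sits on the outer face of central myelin and Mobp on its cytoplasmic face. Cldn11 forms the tight junctions between myelin layers, Ermn binds the actin skeleton, Opalin is a membrane glycoprotein of the myelin paranode, and Aspa cleaves N-acetylaspartate to give acetate for lipid synthesis. Peripheral myelin is made by Schwann cells, which share genes such as Mbp, Mag and Cnp with oligodendrocytes. They do not depend on Olig2 for myelination, and their myelin lacks Mog.

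The 250 bases upstream of the start of 4 of these genes are shown because they differ in base composition while their genes share the pattern across tissues given below. Sequences are from RefSeq on GRCm38.p6, read 5′ to 3′ on the strand of the gene. Capitals mark matches on either strand to TATAAA, the TATA box, to CAGCTG, an E-box of the kind basic helix-loop-helix factors bind, or to ACAAAG, the core that SOX factors bind. The E-box reads the same on both strands. On the other strand the TATA box reads TTTATA and the SOX core reads CTTTGT. The windows are chr17:37023399-37023648 on the minus strand for Mog, chr9:120149492-120149741 on the plus strand for Mobp, chr16:91225300-91225549 on the plus strand for Olig2 and chr3:31149670-31149919 on the plus strand for Cldn11.
Mog: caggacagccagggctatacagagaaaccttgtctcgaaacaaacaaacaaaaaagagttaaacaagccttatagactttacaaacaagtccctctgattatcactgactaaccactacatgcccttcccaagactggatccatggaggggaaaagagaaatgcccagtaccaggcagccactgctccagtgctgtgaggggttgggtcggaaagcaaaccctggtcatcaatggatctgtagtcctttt
Mobp: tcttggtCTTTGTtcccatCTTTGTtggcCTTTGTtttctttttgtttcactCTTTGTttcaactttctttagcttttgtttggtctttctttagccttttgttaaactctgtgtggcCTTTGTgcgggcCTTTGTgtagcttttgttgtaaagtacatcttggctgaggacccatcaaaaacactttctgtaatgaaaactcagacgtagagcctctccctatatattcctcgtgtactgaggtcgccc
Olig2: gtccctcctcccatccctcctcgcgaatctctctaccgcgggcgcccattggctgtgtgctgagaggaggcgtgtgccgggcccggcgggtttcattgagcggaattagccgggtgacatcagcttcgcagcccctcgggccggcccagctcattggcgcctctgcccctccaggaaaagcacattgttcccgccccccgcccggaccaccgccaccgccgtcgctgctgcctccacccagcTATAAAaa
Cldn11: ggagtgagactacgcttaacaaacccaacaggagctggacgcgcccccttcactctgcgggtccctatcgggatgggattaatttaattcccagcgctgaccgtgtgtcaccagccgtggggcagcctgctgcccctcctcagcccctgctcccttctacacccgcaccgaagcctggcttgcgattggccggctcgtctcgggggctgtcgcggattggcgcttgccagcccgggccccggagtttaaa

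All 7 measured genes matched a promoter in the RefSeq table. The Mobp window holds 6 copies of ACAAAG counting both strands, the Opalin window on chromosome 19 holds 1, and the other 5 windows hold none. Of all 32851 windows of this length in the table, 16.5% hold at least 1 copy and 0.00304%, which is 1 window, hold 6 or more. TATAAA occurs once in the Olig2 window, close to its 3′ end, and 3 times in that of Aspa, where 2 copies overlap, and 12.4% of all windows hold it. CAGCTG occurs only in the Aspa window, once, against 13% of all windows. The Aspa window lies inside the span RefSeq gives for the gene on chromosome 11 and is not printed. Olig2 and Cldn11 have 22 and 19 CG dinucleotides in these 250 bases, against a median of 6 over all windows, while Mog has 2, Mobp 4, Ermn 3, Aspa 2 and Opalin 4. A match is a string of letters and not a shown binding site.

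Values are deposited log2 expression values. The median of all probe sets was 6.53 to 6.59 on the motoneuron arrays and 8.29 to 8.40 on the nerve arrays, so levels in the 2 tissues do not share a common scale. A gene with several probe sets is represented by the set with the highest mean over the 12 arrays, called probe set 1. As a check of the labels, 10 of 11 measured motoneuron genes were higher in wild type motoneurons than in wild type nerve, among them Slc18a3, the vesicular acetylcholine transporter, by 6.54 over a nerve value below the lower quartile of its arrays. Chat, the enzyme that makes acetylcholine, differed by -0.29 (adjusted p = 0.282 by limma, and 1.47 after centring). Of 12 peripheral myelin and Schwann cell genes 11 were lower in motoneurons. Of all 18193 genes, 3225 were higher and 11594 lower in wild type motoneurons than in wild type nerve. In motoneurons the myelin gene Pmp2 had 3.67 in knockout and 3.54 in wild type, below the lower quartile of all probe sets on those arrays, against 14.7 in wild type nerve. The number of arrays limits the precision. Motoneuron wild type replicate 3 had a mean correlation over probe sets of 0.987 with its own group and 0.989 with the knockout arrays. It was the only motoneuron array closer to the other genotype. Results that rest on it are given with and without it.

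Oligodendrocyte genes ran from middle to high levels on the arrays of captured motoneurons. Mobp, the highest, lay above 94.3% of genes in knockout and 94.8% in wild type. Olig2, the lowest, lay above 46.8% in knockout and 50.1% in wild type. Of the 7 genes, 6 were higher in motoneurons than in nerve in knockout and in wild type mice, and Aspa was lower in both. The median difference over the 7 genes was 4.41 in knockout and 4.34 in wild type on the log2 scale, against -0.86 and -0.90 over all genes. Of the 13 probe sets, 11 were higher and 1 lower in knockout, where 15.2% of all probe sets were called higher and 67.5% lower (limma, two-sided, adjusted p under 0.05). In wild type mice 12 probe sets were higher and 1 lower, where 14.3% of all probe sets were called higher and 67.9% lower. Only 1 call differed between the genotypes, that of Mobp probe set 5, and a test of the tissue by genotype interaction for it did not pass (adjusted p = 0.851 by limma).

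Mog had 11.93, 11.12 and 11.63 in knockout motoneurons, 12.31, 11.45 and 11.96 in wild type motoneurons, 5.26, 4.43 and 4.10 in knockout nerve and 4.20, 4.60 and 4.63 in wild type nerve. Every motoneuron array stood far above every nerve array, and the nerve values lay below the lower quartile of probe sets on their arrays. The difference was 6.96 (SE 0.33, adjusted p = 1.48e-07 by limma) in knockout and 7.43 (SE 0.26, adjusted p = 1.76e-07 by limma) in wild type. No detection calls were used here, so it is not known whether values this low were above background. Where one tissue lies below the lower quartile, as nerve does for Mog, Ermn and Olig2, the difference is one of deposited values, its size depends on the level of the dim side, and no fold is given.

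Ermn probe set 1 had 9.76, 8.89 and 9.51 in knockout motoneurons, 10.39, 9.87 and 9.69 in wild type motoneurons, 3.92, 3.84 and 3.78 in knockout nerve and 3.88, 4.07 and 3.64 in wild type nerve. The nerve values were again below the lower quartile of their arrays and hardly varied. The tissue difference was 5.54 (SE 0.25) in knockout and 6.12 (SE 0.23) in wild type. Probe set 2 of the same gene gave 6.67 (SE 0.34) in knockout and 7.11 (SE 0.23) in wild type, so the sets had the same direction. The nerve values of both sets were too low for their sizes to be compared.

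Olig2 had 8.13, 8.13 and 8.23 in knockout motoneurons, 8.97, 8.28 and 8.60 in wild type motoneurons, 3.71, 3.45 and 3.36 in knockout nerve and 2.99, 3.48 and 3.32 in wild type nerve. The 2 tissues did not overlap, and within motoneurons the 3 knockout arrays all lay below the 3 wild type arrays. The tissue difference was 4.65 (SE 0.19) in knockout and 5.35 (SE 0.23) in wild type, against nerve values above those of 2.48% of genes in knockout and 1.74% in wild type.

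Mobp probe set 1 had 13.36, 12.94 and 13.23 in knockout motoneurons, 13.33, 12.96 and 13.56 in wild type motoneurons, 9.65, 8.39 and 8.27 in knockout nerve and 8.60, 9.41 and 8.81 in wild type nerve. Knockout nerve replicate 1 stood above the other knockout nerve arrays, and all nerve values remained below the motoneuron values. The differences between tissues were 4.41 (SE 0.33) in knockout and 4.34 (SE 0.24) in wild type. The 4 other Mobp probe sets gave smaller differences, of 3.92, 2.57, 4.40 and 0.43 in knockout and 4.10, 2.06, 3.87 and 0.75 in wild type, in order of their mean level. For probe set 4 the nerve means, 5.59 in knockout and 6.01 in wild type, lay below the lower quartile of probe sets on their arrays. Probe set 5 passed in wild type (adjusted p = 0.0173 by limma) and missed in knockout (adjusted p = 0.147 by limma). Its wild type call was lost without nerve wild type replicate 2 (adjusted p = 0.0559 by limma). In knockout it passed without motoneuron knockout replicate 2 (0.65, adjusted p = 0.0304 by limma) and when arrays were centred (2.20) or quantile normalized together (2.17).

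Opalin probe set 1 had 11.23, 10.63 and 10.73 in knockout motoneurons, 11.34, 10.24 and 11.11 in wild type motoneurons, 7.08, 7.09 and 7.05 in knockout nerve and 7.06, 7.38 and 7.01 in wild type nerve. Wild type motoneuron replicate 2 was the lowest of the 6 motoneuron arrays and still lay well above nerve. The tissue differences were 3.79 (SE 0.19) in knockout and 3.74 (SE 0.30) in wild type. Opalin probe set 2 was dim throughout, with motoneuron values from 3.55 to 4.42, and gave 0.93 in knockout and 0.99 in wild type.

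Cldn11 had 11.00, 10.36 and 10.89 in knockout motoneurons, 12.06, 11.67 and 11.25 in wild type motoneurons, 9.21, 9.04 and 9.89 in knockout nerve and 9.36, 9.08 and 9.87 in wild type nerve. Here the gap between tissues was smaller, and nerve replicates 3 of each genotype were the highest nerve arrays. The tissue difference was 1.37 (SE 0.25, adjusted p = 0.000848 by limma) in knockout and 2.22 (SE 0.27, adjusted p = 0.000103 by limma) in wild type.

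Aspa ran the other way, with 9.22, 8.78 and 8.96 in knockout motoneurons, 9.96, 9.11 and 9.10 in wild type motoneurons, 12.80, 12.82 and 12.83 in knockout nerve and 12.98, 12.72 and 12.90 in wild type nerve. Its nerve values lay within a narrow band above all motoneuron values. The tissue difference was -3.83 (SE 0.13, 14.2-fold lower) in knockout and -3.48 (SE 0.24, 11.1-fold lower) in wild type. None of these 7 directions turned when arrays were centred on their medians or quantile normalized together. The median over the genes became 6.18 in knockout and 6.10 in wild type after centring, and 5.46 in knockout and 5.36 in wild type after quantile normalization. The median difference of all probe sets moved more in proportion, in wild type being -1.09 as deposited, 0.15 after quantile normalization and 0.67 after centring, so sizes of tissue differences depend on the scaling.

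**Figure D1:**
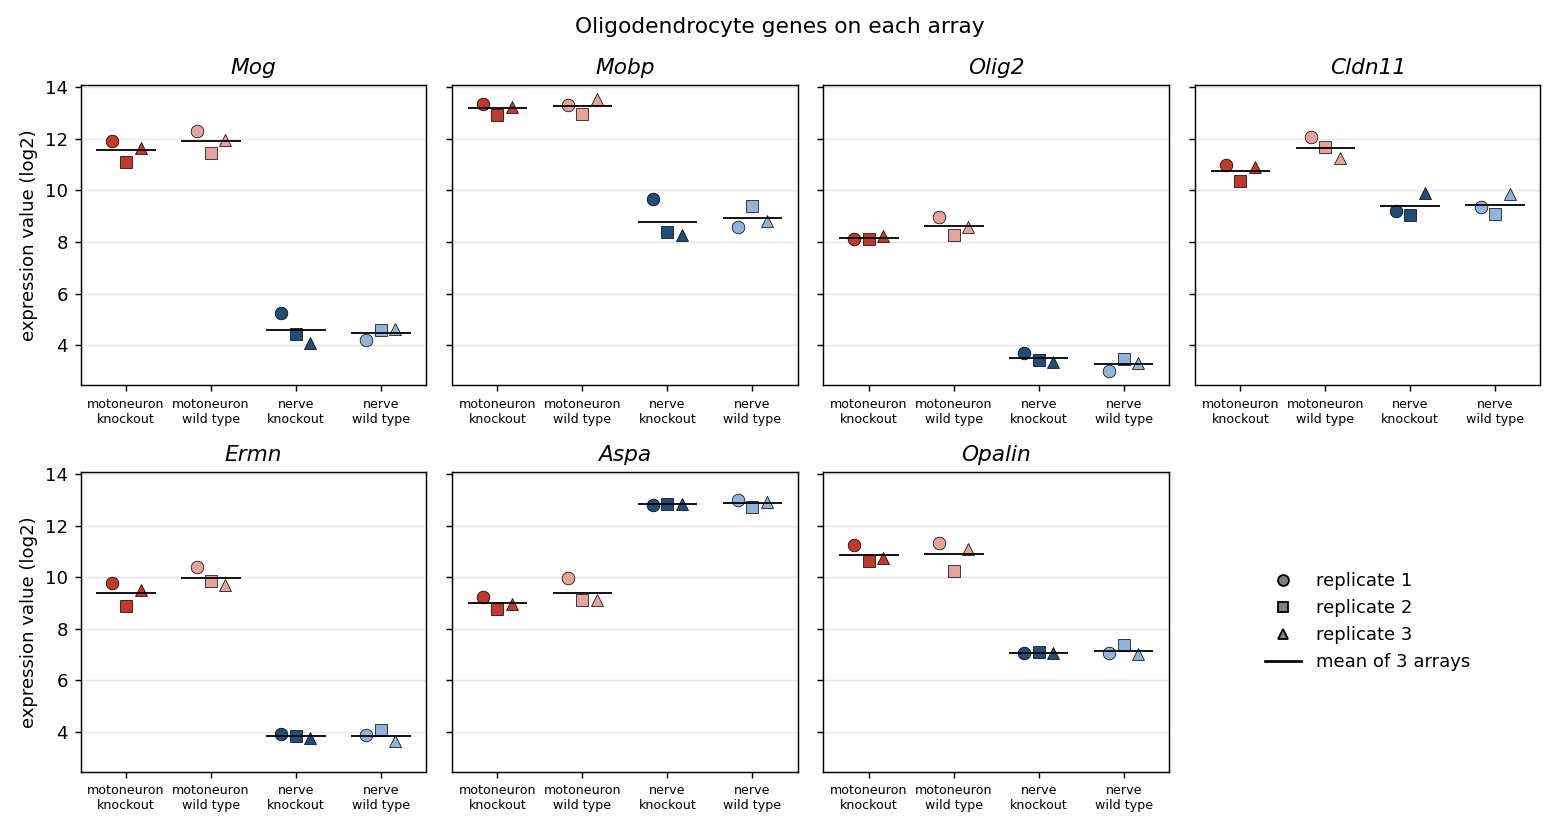
Log2 expression values (y axis) of 7 oligodendrocyte genes, by their brightest probe set, on each of the 12 arrays, with 3 arrays a group and a line at the group mean. Mog, Ermn and Olig2 lie far higher in motoneurons than in nerve, Cldn11 has the smallest gap among the genes that are higher in motoneurons, and Aspa is higher in nerve.

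Other oligodendrocyte genes did not all share this pattern. Of 35 further measured genes of mature oligodendrocytes and central myelin, 12 were higher and 22 lower in wild type motoneurons than in wild type nerve (median -1.48). After quantile normalization 12 were higher and 19 lower, and after centring the split turned to 16 higher and 12 lower (median 0.28). The counts over all 18193 genes moved likewise with the scaling. They were 3225 higher and 11594 lower as deposited, 7844 and 5561 after quantile normalization and 11137 and 3646 after centring. Examples that kept their direction under each scaling were picked after their values were seen. Olig1, the partner of Olig2 in the lineage, was higher in motoneurons by 5.13 (SE 0.19), Nkx2-2, another lineage factor, by 3.27 (SE 0.25) and Myrf, the regulator of central myelin genes, by 3.18 (SE 0.17). These 3 genes also lay below the lower quartile in nerve. In contrast Sox10, a factor that Schwann cells use as well, differed by -4.02 (SE 0.24), and Erbb3, their neuregulin receptor, differed by -5.00 (SE 0.35). Mbp, the basic protein of central and peripheral myelin, differed by -0.78 (SE 0.05) as deposited and by 0.98 after centring, so its direction depended on the scaling.

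Of 9 measured lineage regulators 4 were higher and 5 lower in motoneurons, in knockout and in wild type mice. Of all 18193 genes 3433 were higher and 11668 lower in knockout, and 3225 and 11594 in wild type. Among 12 lipid enzymes and transporters of myelin, a list that includes Aspa, 1 was higher and 10 were lower in each genotype (median -2.57 in knockout and -2.33 in wild type). After centring the wild type counts were 4 higher and 7 lower. Aspa was thus lower in motoneurons together with most of the myelin lipid genes measured, such as Fa2h, which makes hydroxylated fatty acids, at -4.58 in knockout and -3.81 in wild type.

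**Figure D2:**
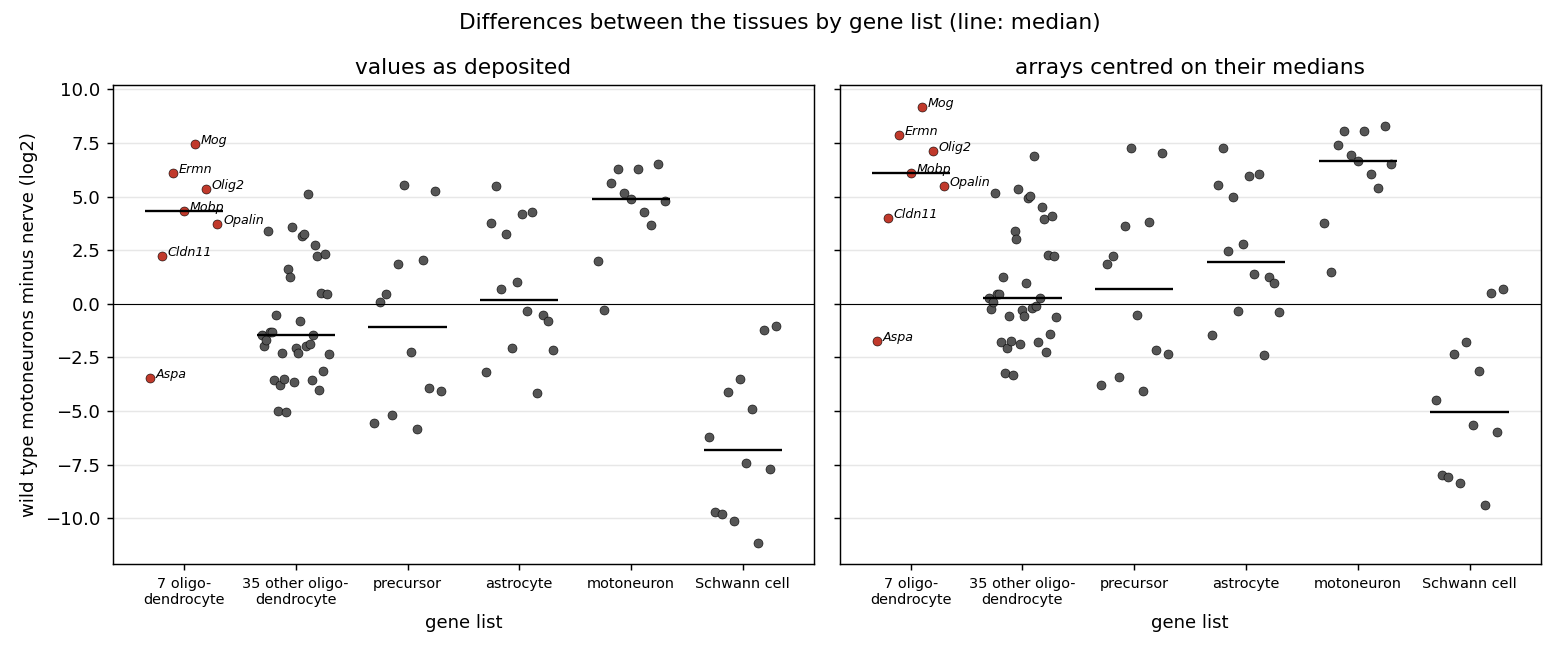
Difference between wild type motoneurons and wild type nerve (log2, y axis) for each measured gene of 6 gene lists (x axis), as deposited on the left and after each array was centred on its median on the right, with a line at the median of each list. The 7 oligodendrocyte genes have a median of 4.34 as deposited and 6.10 after centring, the 35 other oligodendrocyte genes spread over both sides of 0, and the Schwann cell genes lie lowest.

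The differences of these genes between knockout and wild type motoneurons were small beside the differences between tissues. No probe set of the 7 genes passed in knockout against wild type motoneurons by limma, and neither did any other probe set on the array: 0% were called, while 17.0% had an unadjusted p under 0.05. All 7 genes had a difference below 0, where 47.3% of all genes did. Of the 13 probe sets 11 lay below 0, where 44.3% of all probe sets did. The median over the 7 genes was -0.40, against 0.02 over all genes. In bulk samples such as these, the number of oligodendrocytes in a capture and the RNA per cell cannot be told apart.

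Cldn11 had the largest difference of the 7, at -0.91 (SE 0.24, unadjusted p = 0.00549, adjusted p = 0.141 by limma). All 3 knockout values, given above, lay below all 3 wild type values. Olig2 also did not overlap between the genotypes, at -0.46 (SE 0.21, adjusted p = 0.332 by limma), and 9.77% of all probe sets were lower in knockout without overlap. Cldn11 passed when motoneuron wild type replicate 3 was left out (-1.11, adjusted p = 0.0188 by limma) and with array weights (-0.99, adjusted p = 0.0332 by limma), where 10.3% and 6.50% of all probe sets were called. Over all alternatives its adjusted p ran from 0.0188 to 0.381. No other of the 13 probe sets passed under any alternative.

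Ermn probe set 1 differed by -0.60 (SE 0.27, adjusted p = 0.316 by limma) and probe set 2 by -0.47 (SE 0.31). For both the genotypes overlapped, because knockout replicate 1 lay above wild type replicate 3. Aspa differed by -0.40 (SE 0.26) and Mog by -0.35 (SE 0.26), again with overlapping groups. Opalin probe set 1, at -0.03 (SE 0.29), and Mobp probe set 1, at -0.11 (SE 0.16), had the differences closest to 0.

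The Mobp probe sets did not move together between genotypes. Probe set 2 differed by -0.14 (SE 0.30) and probe set 5 by -0.33 (SE 0.30), but probe set 4 by 0.12 (SE 0.25) and probe set 3 by 0.59 (SE 0.44). Probe set 3 had 10.43, 9.92 and 10.08 in knockout motoneurons and 9.57, 8.56 and 10.53 in wild type motoneurons. Wild type replicate 2 was the lowest array and wild type replicate 3 the highest, so the spread in wild type enclosed the knockout values.

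**Figure D3:**
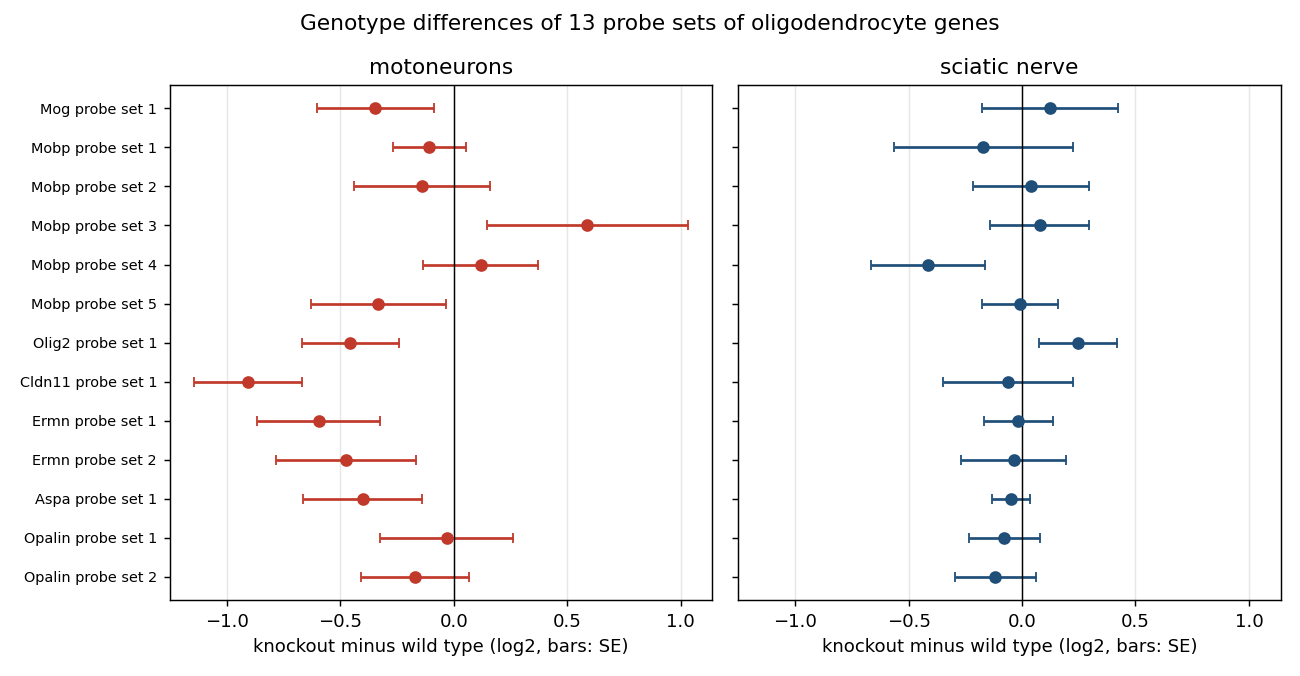
Knockout minus wild type difference (log2, x axis) of 13 probe sets of the 7 oligodendrocyte genes, in motoneurons on the left and in sciatic nerve on the right, with bars for the standard error from limma. In motoneurons 11 of 13 points lie below 0, with Cldn11 farthest at -0.91, and no point passed the adjusted threshold in either tissue.

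In sciatic nerve none of the 13 probe sets passed, and 0% of all probe sets did, with 2.31% at an unadjusted p under 0.05. The median over the 7 genes was -0.05, with 5 genes below 0 and 2 above, where 50.6% of all genes and 47.1% of all probe sets lay below 0. Without 1 array that median ran from -0.053 to 0.065, and it lay above 0 without knockout replicate 2, knockout replicate 3 or wild type replicate 2. Mobp probe set 4 had the largest difference of the 13, at -0.42 (SE 0.25), with both group means below the lower quartile of the nerve arrays. Olig2 differed by 0.25 (SE 0.17), in values that lay at the dim end of the nerve arrays. Cldn11 differed by -0.06 (SE 0.29) and Aspa by -0.05 (SE 0.09).

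The tissue by genotype interaction did not pass for any of the 13 probe sets by limma, nor for any other probe set (0% called, 7.54% at an unadjusted p under 0.05). The median difference of the effects, motoneurons minus nerve, was -0.47 over the 7 genes, against 0.02 over all genes. It was -0.25 without motoneuron knockout replicate 2 and -0.27 without motoneuron wild type replicate 1. It was -0.65 without motoneuron knockout replicate 1 and -0.64 without motoneuron wild type replicate 2. Olig2 had -0.70 (SE 0.29, adjusted p = 0.642 by limma) and Cldn11 -0.85 (SE 0.40, adjusted p = 0.670 by limma). Opalin and Mobp probe sets 1 had 0.05 (SE 0.37) and 0.06 (SE 0.46).

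Single arrays carried much of the motoneuron pattern. As a deviation from the mean of the 6 motoneuron arrays, the average of the 7 genes was 0.04, -0.49 and -0.16 on the knockout arrays and 0.58, -0.10 and 0.14 on the wild type arrays. Knockout replicate 2 was the lowest array for Mog, Mobp, Cldn11, Ermn and Aspa, and wild type replicate 1 the highest for each gene other than Mobp. Without knockout replicate 2 the median difference over the 7 genes was -0.30, with 5 of 7 below 0. Without wild type replicate 1 it was -0.14, with 6 of 7 below 0. Without wild type replicate 3 it was -0.46, with 5 of 7 below 0. Without wild type replicate 2 it was -0.57 and without knockout replicate 1 -0.52, each with 7 of 7 below 0. Without knockout replicate 3 it was -0.39, with 6 of 7 below 0.

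Knockout replicate 2 also had a low level of Xist, the transcript expressed from the inactive X chromosome of females, at 5.18 against 9.37 to 10.38 on the other 5 motoneuron arrays. With Xist as a covariate the median difference over the 7 genes was -0.22, with 5 of 7 below 0, and with the Gapdh 3′ to 5′ difference as a covariate it was -0.59, with 7 of 7 below 0. In the fit with Xist Mobp probe set 1 was at 0.07 and Opalin probe set 1 at 0.19, and Cldn11 remained below 0. The 18S RNA control probe set read 14.66 to 14.67 on the knockout and 13.77 to 14.64 on the wild type motoneuron arrays. The hybridisation control bioB read 10.67 to 10.81 on the knockout and 11.17 to 11.44 on the wild type motoneuron arrays. On the nerve arrays it read 10.58 to 10.70 in knockout and 11.54 to 11.80 in wild type. The genotypes did not overlap for bioB in either tissue, so genotype and array handling cannot be told apart. In nerve Xist was 12.54 on knockout replicate 3, 12.49 on wild type replicate 2 and 4.49 to 6.06 on the others. The part of these measures in the differences was not tested beyond the Xist covariate and the Gapdh covariate.

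The 7 genes varied together from array to array to differing degrees. Over the 6 motoneuron arrays all 21 pairs had a positive Pearson correlation, with a median of 0.77. The share of positive pairs among other genes was not computed. Mobp had 0.27 with Cldn11, 0.40 with Aspa and 0.45 with Ermn, and Ermn had 0.44 with Opalin. The closest pair was Cldn11 with Ermn, at 0.95, and the loosest Cldn11 with Opalin, at 0.23. These points share libraries and genotype groups, so the correlations describe 6 arrays and carry no test. The standard deviation of each gene over these arrays was larger than that of 61.1% (Mobp) to 97.3% (Cldn11) of the 9096 genes above the median level.

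**Figure D4:**
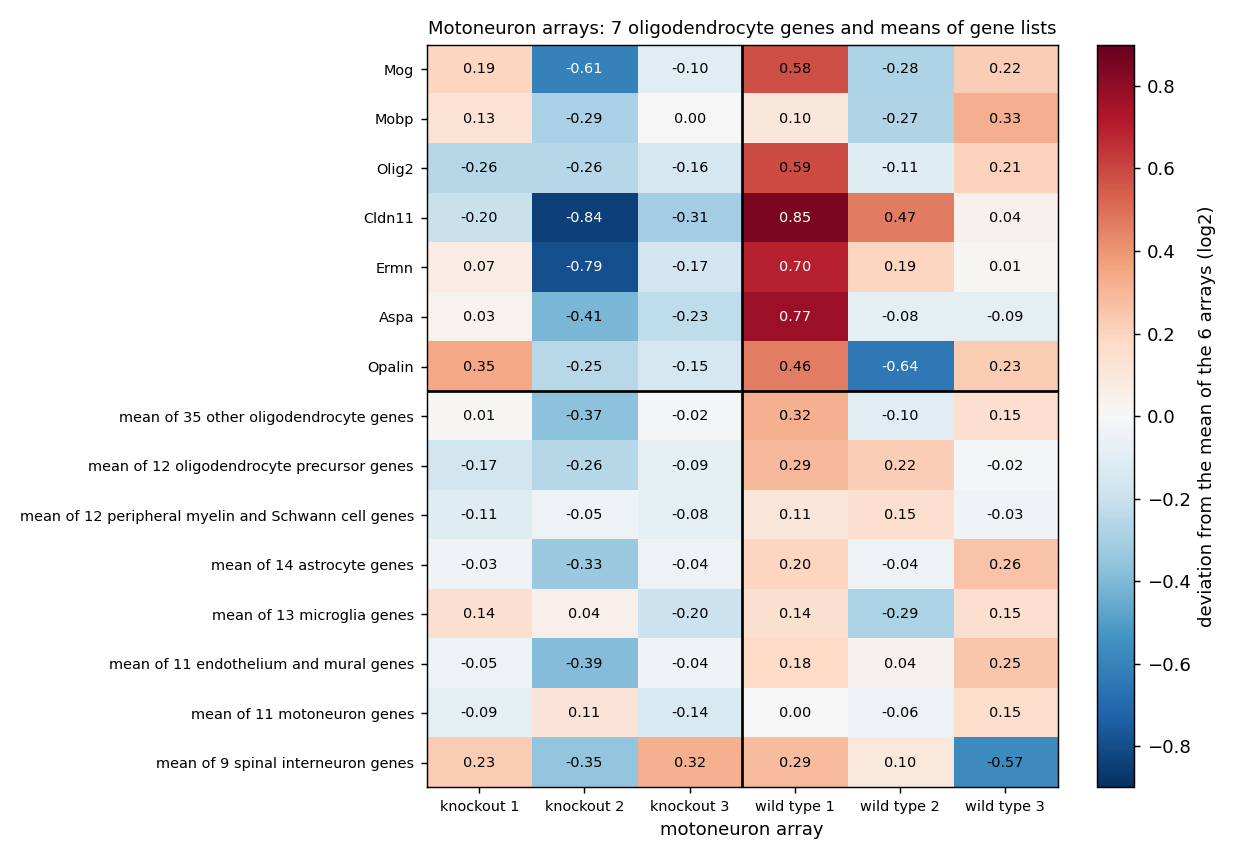
Deviation of each motoneuron array (columns, 3 knockout and 3 wild type) from the mean of the 6 arrays (log2, colour and printed value), for 7 oligodendrocyte genes and for the mean of each of 8 gene lists. Knockout replicate 2 is low and wild type replicate 1 high for most of the 7 genes, and knockout replicate 2 is also the lowest array for the means of the other oligodendrocyte, precursor, astrocyte and endothelium lists but not for those of the Schwann cell, microglia, motoneuron and interneuron lists.

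Other spinal cord cell types were read beside them, and no gene of any list passed between the genotypes in motoneurons by limma (0% called). In knockout 47.3% of all 18193 genes lay below 0. Of the 35 other oligodendrocyte genes 27 did, with a median of -0.20. That median was -0.096, with 20 genes below 0, without knockout replicate 2 and -0.34 without wild type replicate 2, and -0.13 when a gene's probe sets were averaged. Mbp differed by -0.21 (SE 0.05, adjusted p = 0.121), Anln, an actin and septin binding protein of myelin, by -1.19 (SE 0.31, adjusted p = 0.138), Mal, a raft protein of myelin, by -0.59 (SE 0.16, adjusted p = 0.152) and Olig1 by -0.48 (SE 0.13, adjusted p = 0.154), all by limma. Septin4, a septin of myelin named for its high level, differed by 0.14 (SE 0.05). Of 12 precursor genes 11 lay below 0, with a median of -0.37 and Ptprz1, a receptor phosphatase of precursors and astrocytes, at -1.22 (SE 0.25, adjusted p = 0.118 by limma). The precursor median was -0.21 without knockout replicate 2, -0.20 without wild type replicate 1, -0.59 without wild type replicate 3 and -0.23 when probe sets were averaged.

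The other lists gave these values. Of 14 astrocyte genes 10 lay below 0 with a median of -0.29, and their mean level per array was 10.27 to 10.57 in knockout motoneurons and 10.56 to 10.86 in wild type motoneurons. The astrocyte median was -0.19, with 8 genes below 0, without knockout replicate 2 and -0.086 when probe sets were averaged. Of 11 endothelium and mural genes 10 lay below 0 with a median of -0.30, and their mean level was 6.79 to 7.14 in knockout and 7.22 to 7.43 in wild type motoneurons. Of 13 microglia genes 9 lay below 0 with a median of -0.03, and their mean level was 6.86 to 7.20 in knockout and 6.77 to 7.21 in wild type motoneurons. Of 11 motoneuron genes 8 lay below 0 with a median of -0.06, and their mean level was 11.94 to 12.19 in knockout and 12.02 to 12.23 in wild type motoneurons. For the 7 oligodendrocyte genes it was 10.12 to 10.66 in knockout and 10.51 to 11.19 in wild type motoneurons, and for the 35 others 9.67 to 10.05 in knockout and 9.94 to 10.36 in wild type motoneurons. For the 12 precursor genes it was 7.22 to 7.39 in knockout and 7.46 to 7.77 in wild type motoneurons. For the 12 peripheral myelin and Schwann cell genes it was 6.48 to 6.54 in knockout and 6.56 to 6.74 in wild type motoneurons. Of the lists with levels given here, the mean levels of the endothelium, precursor and Schwann cell lists did not overlap between the genotypes. Those of the astrocyte list overlapped barely, and the others overlapped. By gene, 2 endothelium, 3 precursor and 0 Schwann cell genes were lower in knockout without overlap, and 0, 1 and 1 were higher. The lists with overlapping means also held such genes. Lower were 10 of 35 other oligodendrocyte, 5 of 14 astrocyte, 3 of 11 motoneuron and 0 of 13 microglia genes. Higher in these lists were 1, 0, 0 and 0. Of the 7 oligodendrocyte genes 2 were lower and 0 higher. Over all 18193 genes 2173 were lower and 2522 higher without overlap. A share for means of lists was not computed. Of 12 peripheral myelin and Schwann cell genes 8 lay below 0 (median -0.20), of 9 spinal interneuron genes 4 (median 0.05), of 9 lineage regulators 5 (median -0.09) and of 12 myelin lipid genes 7 (median -0.04). Without 1 array the medians nearest 0 moved on both sides of it, from -0.21 to 0.057 for microglia genes, -0.19 to 0.26 for interneuron genes and -0.27 to 0.067 for lineage regulators. Leaving out 1 array also moved the motoneuron gene median to -0.12 (knockout replicate 2) and that of the lipid genes to -0.058 (knockout replicate 1) or -0.064 (wild type replicate 2). The part of these cell types in the differences was not tested. No detection calls were used, so it is not known which markers of these lists were above background. Without motoneuron wild type replicate 3 the calls in these lists were Anln, Gpr37, Mbp, Ppp1r14a and Tmem88b among the other oligodendrocyte genes, Ptprz1 among precursor genes, Sox2 among peripheral myelin and Schwann cell genes, Aqp4, Slc1a3 and Slc4a4 among astrocyte genes and Isl1, Ret and Slc5a7 among motoneuron genes. Among the other oligodendrocyte genes 4 of these calls were lower and 1 higher in knockout, and among motoneuron genes 2 lower and 1 higher. With all arrays Ppp1r14a differed by 0.53. The precursor, Schwann cell and astrocyte calls were all lower. Over all genes 1529 calls were lower and 1022 higher. No gene of the microglia, endothelium, interneuron, lineage regulator or lipid lists passed there. The share was 14.3% of the other oligodendrocyte, 8.33% of the precursor, 8.33% of the Schwann cell, 21.4% of the astrocyte and 27.3% of the motoneuron genes, where 14.0% of all genes passed.

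The genes most like the 7 over the motoneuron arrays were taken from 9090 genes with a mean above the median. Dbndd2, a dysbindin domain protein, had the highest correlation with the mean of the 7 genes, at 0.99 over 6 arrays. Its values were 11.10, 10.73 and 10.97 on the knockout and 11.52, 10.92 and 11.17 on the wild type arrays. The next were Rock1 (a serine/threonine kinase, 0.98), Sh3pxd2a (0.97), Oga (0.97), Wdr5 (0.97), B230219D22Rik (0.97), 2810004N23Rik (0.96), Chpt1 (0.96), Mal (0.96) and Rpgrip1 (0.96). Of these 10 only Mal was on the list of other oligodendrocyte genes. By list, the median correlation with the 7 genes was 0.71 for 26 other oligodendrocyte genes, 0.64 for 12 astrocyte genes, 0.43 for 5 spinal interneuron genes, -0.02 for 10 myelin lipid genes, -0.08 for 10 motoneuron genes and -0.02 for all genes compared. For lists with 2 or 3 genes compared it was 0.81 for endothelium (2), 0.80 for lineage regulators (3), 0.47 for precursor (3), 0.11 for microglia (3) and 0.01 for Schwann cell genes (2). These correlations are a description of 6 arrays that share libraries and genotype groups, and carry no test.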

How the data were processed

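RNA of 12 samples was measured on Affymetrix 3′ expression arrays, after amplification of 20 ng per sample, per the labels' protocols. The deposited log2 values per probe set were made with Affymetrix Expression Console 1.1, per the submitters' processing notes, and how probes were summarized or corrected for background is not given in the sources used here. Array medians differ between the tissues but hardly within them. Of 45101 probe sets, 64 controls were left out and 45037 tested. The platform annotation gives 34945 of these exactly 1 symbol, 932 several and 9160 none, with symbols updated through the RefSeq table of GRCm38.p6.

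Differences were fitted with limma 3.58.1 (R 4.3.3; lmFit, then eBayes with trend, two-sided), on the arrays of the groups compared, and p-values were adjusted by Benjamini-Hochberg across the 45037 sets, with a threshold of 0.05. The effect in motoneurons minus that in nerve was an interaction over 12 arrays. Folds are powers of 2 of log2 differences. The fit was tested on simulated data. Alternatives were quantile normalization, centring, brighter probe sets, no trend, array weights, covariates, a replicate block, averaging the probe sets of a gene, and leaving out each array.

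The genes and lists were chosen with earlier results of these data known. All measured members are named. Genes were named for the smallest p between genotypes in motoneurons or the highest level only from the other oligodendrocyte and precursor lists. Any others are named as stated. An unadjusted p under 0.05 by limma was also reached by 4 of 14 astrocyte and 4 of 12 Schwann cell genes, not named for it. The same holds for 2 of 11 endothelium and 2 of 11 motoneuron genes. Of all 18193 genes 3792 reached it. Likeness is the correlation with the mean of the centred members. Figures were drawn with matplotlib 3.10.9. Same-numbered arrays of the 2 genotypes had correlated deviations of 0.09, -0.06 and -0.08 in motoneurons and 0.03, 0.31 and 0.22 in nerve. In motoneurons the highest value was 0.15, of knockout 2 with wild type 3, so the numbers did not mark pairs there. In nerve the same-numbered 0.31 and 0.22 were the highest values, and the lowest was -0.30, of knockout 2 with wild type 3. Whether the nerve arrays were paired by number is not known. No 2 arrays were identical.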

Additional observations from a re-analysis of the deposited data

How the results depend on the processing

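The number of arrays, 3 a group, limits what can be seen, and the values carry no depth. Of 949 repeats of the 13 probe sets over 5 comparisons, 885 kept their direction and their side of the threshold, 58 turned in sign, 5 gained and 1 lost a call. No value that turned in sign passed before or after, and the cause of the changes was not tested. The gained calls were those of Cldn11 between genotypes in motoneurons without wild type replicate 3 (-1.11) and with array weights (-0.99) and 3 of Mobp probe set 5 in knockout tissues, and the lost call was that of Mobp probe set 5 in wild type without nerve replicate 2 (0.68). No direction between the tissues turned.

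Probe sets called between genotypes in motoneurons numbered 0, against 61 among brighter probe sets, 2929 with array weights, 828 with 12 arrays in 1 fit and 0 without any other single array and 4646 without wild type replicate 3. In nerve the count was 0, and 1 with 12 arrays in 1 fit, and for the interaction it was 238 without motoneuron wild type replicate 3, 2 without motoneuron wild type replicate 1, 2 without nerve wild type replicate 2 and 0 without any other single array. Among brighter probe sets 19115 differed between the tissues in knockout and 18336 in wild type, where fewer were tested. The median tissue difference of the 7 genes was 5.46 in knockout and 5.36 in wild type after quantile normalization, 6.18 in knockout and 6.10 in wild type after centring, 3.14 in knockout and 3.02 in wild type when a gene's probe sets were averaged, and 4.16 to 4.75 in knockout without 1 array.

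Differences near 0 turned in sign under single settings. Between genotypes in motoneurons, with Xist as a covariate, Mobp probe set 1 was at 0.073, Mobp probe set 2 at 0.24 and Opalin probe set 1 at 0.19, and with array weights Mobp probe set 2 was at 0.089. In nerve, with the Gapdh covariate, Mobp probe set 1 was at 0.11, Ermn probe set 1 at 0.040 and Ermn probe set 2 at 0.048. After centring Mobp probe set 2 was at -0.0013, after quantile normalization Mobp probe set 5 was at 0.0019 and Ermn probe set 1 at 0.021, and with array weights Ermn probe set 1 was at 0.0059. For the interaction Opalin probe set 1 was at -0.030 with array weights. Without 1 array, values in motoneurons ran for Mobp probe set 1 from -0.27 to 0.029, Mobp probe set 2 from -0.37 to 0.13, Mobp probe set 4 from -0.14 to 0.37, Opalin probe set 1 from -0.36 to 0.19 and Opalin probe set 2 from -0.41 to 0.024. In nerve they ran for Mog probe set 1 from -0.21 to 0.37, Mobp probe set 1 from -0.61 to 0.080, Mobp probe set 2 from -0.18 to 0.28, Mobp probe set 3 from -0.084 to 0.22, Mobp probe set 5 from -0.11 to 0.090, Cldn11 probe set 1 from -0.32 to 0.16, Ermn probe set 1 from -0.13 to 0.088, Ermn probe set 2 from -0.24 to 0.20, Aspa probe set 1 from -0.12 to 0.0057 and Opalin probe set 1 from -0.15 to 0.037. For the interaction they ran for Mobp probe set 1 from -0.19 to 0.50, Mobp probe set 2 from -0.42 to 0.087, Opalin probe set 1 from -0.28 to 0.27 and Opalin probe set 2 from -0.30 to 0.14.

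Of 410 repeats for the other lists, 358 moved the median by less than the spread between replicates and 52 by more. The replicate block was fitted although it is not known whether the numbers pair the arrays. It gave 0 calls between genotypes in either tissue and 0 for the interaction. Between tissues it gave 36960 calls in knockout and 36402 in wild type, and it left the calls of the 13 probe sets as they were.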
